A study of Mus musculus with 4 samples.

Results

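The genes described here are carboxypeptidase E (Cpe), 3 related carboxypeptidases (Cpd, Cpm and Cpz) and 5 proprotein convertases (Furin, Pcsk4, Pcsk5, Pcsk6 and Pcsk7). They are 9 of the 25265 genes in the count table, and each was found by its symbol in exactly 1 row. They were chosen by function around Cpe, which was itself selected on its difference in counts between the same 4 libraries. Its values are therefore a description, and no measurement in these 4 libraries is independent of that choice. Whole testes of C57BL/6 mice were taken at postnatal day 56, and their total RNA was depleted of ribosomal RNA and sequenced from directional libraries. There were 2 libraries labelled control, with no genotype given beyond that word, and 2 labelled Ythdf2-vKO, which the series title describes as germ cell-specific mutants of Ythdf2. The labels name neither the Cre driver nor the deleted segment, state no treatment, and are silent on whether libraries came from separate animals, so p-values measure only the spread between libraries.

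Most peptide hormones and many growth factors and receptors are made as inactive precursors. Proprotein convertases, a family of subtilisin-like serine proteases, cut these precursors after paired basic residues in the Golgi, in secretory granules or at the cell surface. The cut leaves lysine or arginine at the new carboxyl end, and metallocarboxypeptidases of the carboxypeptidase E family then trim those residues away. In the testis the best known convertase is PCSK4, which is made by germ cells and is needed for normal sperm fertility. YTHDF2, the product of the targeted gene, binds RNA that carries N6-methyladenosine and promotes its decay.

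Total gene counts ran from 24862518 to 29561182 per library. Levels are given below in CPM, the unit made from counts by edgeR's TMM scaling of the libraries, and not to be confused with the gene Cpm. The counts of Ythdf2 did not go down with the label. In control 1193 and 1604 reads were counted for it, against 1774 and 1807 with the Ythdf2-vKO label, a log2 difference of 0.35 (SE 0.13). The adjusted p of that difference was 0.238 by edgeR. Whole-gene counts do not resolve exons, so they do not show whether a segment was deleted. Rises and falls below compare libraries labelled Ythdf2-vKO (shortened to vKO) with those labelled control. The trend of counts with GC content differed between libraries, both within and between the groups. Spearman correlations across 17817 genes between a library's deviation and transcript GC content were 0.0239 and -0.4 in control replicates 1 and 2. They were 0.254 and 0.189 in vKO replicates 1 and 2. Because both vKO values lay above both control values, removing the GC trend can also remove part of a difference between the groups. Values with that trend removed are given beside each member that was tested.

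Since YTHDF2 reads methylated adenosine, the coding sequences of the 9 genes were searched for GGACT, the commonest form of the sequence in which this mark is found. The search covered the sense strand only, in the longest protein-coding GENCODE M21 transcript of each gene (mouse build GRCm38). These libraries carry no measurement of the mark, so a match is a string of letters and not a methylated site. The coding sequence of Cpe holds 2 matches, that of Furin 1 and that of Pcsk4 3. These are shown because Cpe differed most between the groups, Furin was next to it in p among the members, and Pcsk4 was the most abundant member. Each line runs 5′ to 3′, with the motif in capitals and up to 8 bases on each side.
Cpe, match 1: gagctgaaGGACTggtttgtg
Cpe, match 2: gttggggtGGACTttgagctt
Furin, match 1: tgcccatcGGACTcagaggag
Pcsk4, match 1: ggaaccagGGACTgaccggcc
Pcsk4, match 2: caggcggaGGACTggaggatc
Pcsk4, match 3: tcctggcaGGACTctgcctca

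Match 1 of Cpe lies within a coding exon on the minus strand, at chr8:64617679-64617699. The printed stretch around match 2 of Cpe spans an intron, between 64593207 and 64594902 of chromosome 8. The match of Furin is at chr7:80390761-80390781 on the minus strand, near the end of its coding sequence of 2379 bases, where the motif starts at position 2316. Those of Pcsk4 are at chr10:80326018-80326038, chr10:80323692-80323712 and chr10:80321910-80321930, also on the minus strand. Of 17280 coding sequences, 74.5% hold at least 1 match, with a median of 1.04 per kilobase and quartiles of 0 and 1.75. The density in Cpe was 1.4 per kilobase, at or above that of 63.9% of all coding sequences. Across the members it ran from 0 in Cpm to 1.95 in Pcsk5, which has 11 matches in 5631 bases. Cpe thus lay between the quartiles of all genes, and Furin, at 0.42, was below the median.

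Of the 9 members, 8 passed the filter on low counts and were tested by edgeR's quasi-likelihood method. Among them 1 gene, Cpe, was called at an adjusted p under 0.05, and it was higher in the vKO libraries. None was called lower. Of all 21132 genes tested, 0.393% were called, 0.279% higher and 0.114% lower. At an unadjusted p under 0.05 there were 2 members, Cpe and Furin, against 14.1% of all genes tested. The groups did not overlap in 4 of the 8 tested members, against 45.3% of all genes, so that share is near the background. The median log2 fold change of the 8 was 0.22, with 5 above 0 and 3 below, beside a median of 0.003 over all genes.

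**Figure D1:**
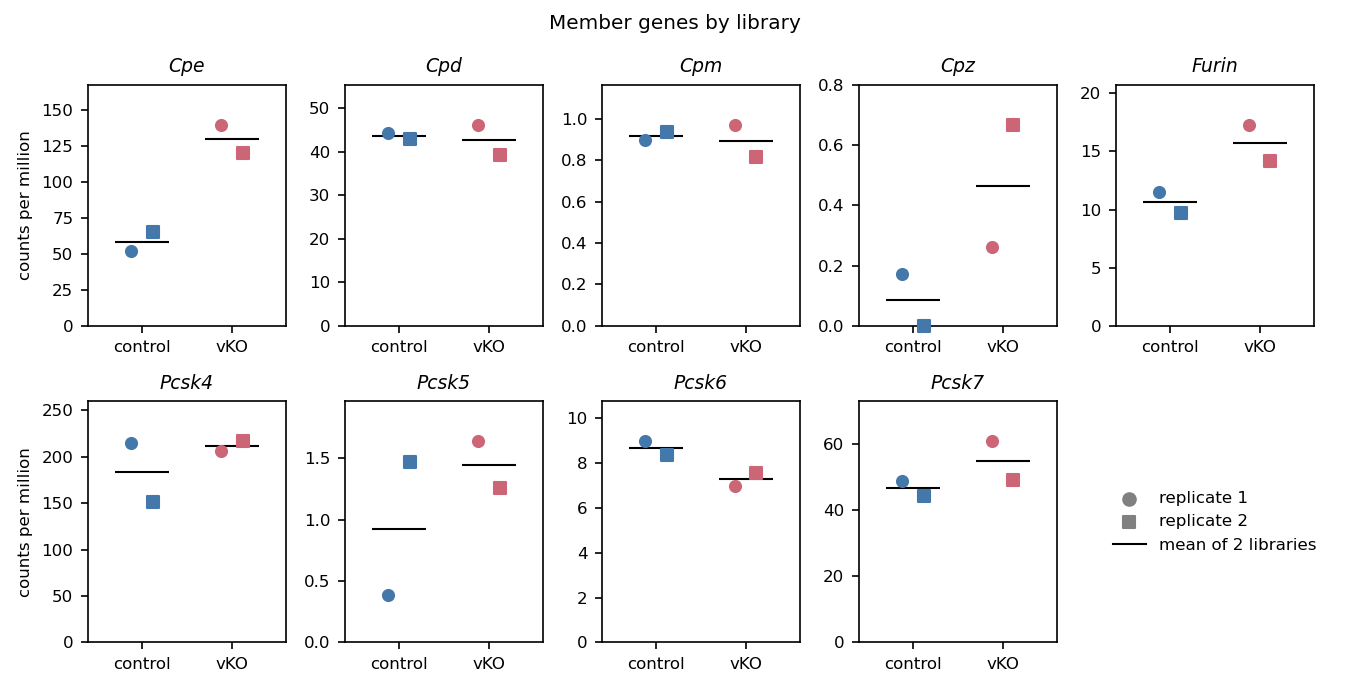
CPM of the 9 genes in each library (vertical axes, each starting at 0), by group on the horizontal axis, where vKO stands for the libraries labelled Ythdf2-vKO. Circles are replicate 1, squares replicate 2, and lines the mean of 2 libraries. Cpe lies at 51.9 and 65.3 in control and at 140.0 and 120.4 in vKO, while the groups overlap for Cpd, Cpm, Pcsk4 and Pcsk5.

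Carboxypeptidase E is the trimming enzyme of regulated secretory granules, best known from endocrine cells and neurons, where it matures insulin, opioid peptides and other hormones. Cpe (ENSMUSG00000037852) spans 64592542 to 64693054 of chromosome 8 on the minus strand. Its counts stood at 1212 and 1958 in control, and at 3748 and 3249 in vKO. This gave 51.9 and 65.3 CPM in control against 140.0 and 120.4 in vKO. The lowest vKO library was well above the highest control library, and the gap between the groups was larger than the gap within either. The means were 58.6 ± 9.52 and 130.2 ± 13.8 CPM (SD, n = 2 each), a 2.22-fold ratio. In the fit across all genes the log2 fold change of Cpe was 1.15 (SE 0.14), and edgeR's adjusted p was 0.00675. It ranked 8 by p among all genes tested and 29 by size of rise among the 59 genes called higher. Of those 59, 1 had a higher mean CPM than Cpe.

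With the GC trend removed the log2 fold change of Cpe was 1.16, and the longest Cpe transcript has a GC content of 49.7%. Leaving out 1 library at a time gave values from 0.99 to 1.33, all past the threshold, although such fits rest on a lone library that is assumed to vary like the others. The authors' deposited table gave a log2 fold change of 1.15 (SE 0.167) and an adjusted p of 1.21e-08 for Cpe. No M21 gene overlaps Cpe, and no transcript of another gene was at least 90% identical to it over 200 bases or more.

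None of the related carboxypeptidases was called. Carboxypeptidase D is a membrane enzyme of the trans-Golgi network that trims proteins cut by furin-like convertases. Cpd (ENSMUSG00000020841, chromosome 11, 76778424 to 76847018, minus strand) had 1036 and 1286 counts in control against 1236 and 1061 in vKO. These corresponded to 44.3 and 42.9 CPM in control and 46.2 and 39.3 in vKO. The control values lay inside the range of the vKO values. The fitted log2 difference was -0.03 (SE 0.14) at an adjusted p of 0.959 by edgeR, and the sign turned under other settings (0.02 with the GC trend removed), with values from -0.15 to 0.08.

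Carboxypeptidase M is anchored to the outer face of the plasma membrane and trims peptides outside the cell. Cpm (ENSMUSG00000020183, chromosome 10, 117629500 to 117687352, plus strand) had 21 and 28 counts in control against 26 and 22 in vKO, so the groups overlapped. Its log2 fold change was -0.04 (SE 0.45), or 0.01 with the GC trend removed, and a difference was not detectable at this depth. Carboxypeptidase Z is a secreted enzyme with a Frizzled-like domain that binds the extracellular matrix and Wnt proteins. Cpz (ENSMUSG00000036596, chromosome 5, 35502218 to 35525698, minus strand) had 4 and 0 counts in control against 7 and 18 in vKO. It did not pass the filter on low counts. Every vKO value was above every control value, but 1 control library lay at 0, so no fold is given.

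Because Cpe and Cpd are counted in the same libraries, their ratio does not depend on how the libraries are scaled. There were 1.17 and 1.52 Cpe counts for each Cpd count in control, and 3.03 and 3.06 in vKO. The vKO libraries thus lay close together and above both control libraries, and the ratio stood higher in control replicate 2 than in control replicate 1. To set levels of different genes side by side, CPM were divided by the length of the union of a gene's exons in kilobases. On that scale Cpe was 22.5 ± 3.65 in control and 49.9 ± 5.31 in vKO, and Cpd was 5.23 ± 0.121 and 5.13 ± 0.581 (SD, n = 2). The summed level of the 4 carboxypeptidases was 25.4 and 30.3 per kilobase in control and 59.5 and 51.3 in vKO. Cpe made up 78.2% and 82.5% of that sum in control and 90.2% and 90% in vKO. The share of Cpd was 20.9% and 17% in control and 9.32% and 9.2% in vKO, while Cpm and Cpz were under 1% in each library.

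**Figure D2:**
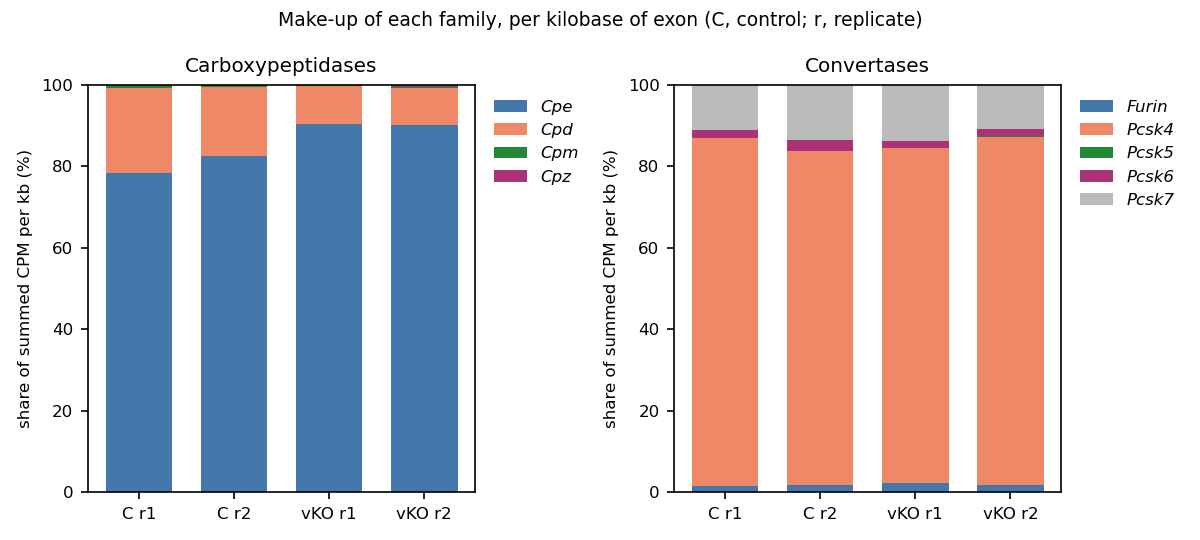
Share of each gene (vertical axis, %) in the summed CPM per kilobase of exon of its family, for the 4 carboxypeptidases (left) and the 5 convertases (right), by library. Cpe takes 78.2% and 82.5% of the carboxypeptidase sum in control and 90.2% and 90% in vKO, and Pcsk4 takes 81.9% to 85.4% of the convertase sum with no split between the groups.

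Furin is the ubiquitous convertase of the trans-Golgi network and cuts precursors of growth factors, receptors and matrix proteases. Furin (ENSMUSG00000030530, chromosome 7, 80388585 to 80405436, minus strand) had 269 and 292 counts in control against 463 and 382 in vKO. In CPM these were 11.5 and 9.74 in control against 17.3 and 14.2 in vKO. The groups did not overlap, and the vKO libraries differed from each other by more than the control libraries did. The means were 10.6 ± 1.25 and 15.7 ± 2.22 (SD, n = 2), a 1.48-fold ratio. Its log2 fold change was 0.57 (SE 0.18) at an unadjusted p of 0.00756, and it was not called (adjusted p 0.191 by edgeR). It was called without control replicate 1, at a log2 fold change of 0.68 and an adjusted p of 0.0233 by edgeR. It was also called with the replicate number as a block (0.56, adjusted p 0.0427 by edgeR), although the labels do not say that the numbers pair libraries. With the GC trend removed the value was 0.44, and Furin was not called either without the block (adjusted p 0.255 by edgeR) or with it (adjusted p 0.144 by edgeR). The longest Furin transcript has a GC content of 55.9%. Gm44851 overlaps Furin on the opposite strand over 118 exonic bases, and whether the counting used strand is not given in the sources used here.

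PCSK4 is the convertase of male germ cells and is found on the sperm head. Pcsk4 (ENSMUSG00000020131, chromosome 10, 80321283 to 80329498, minus strand) had 5021 and 4541 counts in control against 5519 and 5850 in vKO. The values were 214.8 and 151.5 CPM in control and 206.2 and 216.8 in vKO. The groups overlapped, because control replicate 1 lay between the vKO libraries and control replicate 2 stood below the other 3. The fitted log2 difference was 0.21 (SE 0.15) at an adjusted p of 0.604 by edgeR. This value rested on which control library was used: it was 0.47 and called (adjusted p 0.00458 by edgeR) without control replicate 1, and -0.02 without control replicate 2. The longest transcript has a GC content of 61.1%, and with the GC trend removed the value was 0.00.

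PCSK7 is a widely made convertase of the trans-Golgi network. Pcsk7 (ENSMUSG00000035382, chromosome 9, 45906497 to 45929726, plus strand) had 1142 and 1328 counts in control against 1631 and 1324 in vKO. Expressed as CPM, control was at 48.9 and 44.3 and vKO at 60.9 and 49.1. The groups were separated by less than 1 CPM, with control replicate 1 and vKO replicate 2 almost level. The fitted log2 difference was 0.24 (SE 0.14) at an adjusted p of 0.498 by edgeR. It was 0.08 without vKO replicate 1, 0.39 without vKO replicate 2 and 0.13 with the GC trend removed, and Pcsk7 was not called under any of these. Pcsk7 shares 415 exonic bases with Rnf214 and 108 with Tagln on the opposite strand, so its counts are uncertain if strand was not used.

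PCSK5 and PCSK6 are secreted or matrix-bound convertases that act on TGF-beta family precursors. Pcsk5 (ENSMUSG00000024713, chromosome 19, 17432319 to 17837632, minus strand) had 9 and 44 counts in control against 44 and 34 in vKO. Control replicate 1 alone was low, and control replicate 2 matched the vKO libraries. Its log2 fold change of 0.61 (SE 0.53) was -0.02 without control replicate 1 and 1.90 without control replicate 2. It was 0.52 with the GC trend removed. Pcsk6 (ENSMUSG00000030513, chromosome 7, 65861734 to 66050386, plus strand) had 210 and 251 counts in control against 187 and 204 in vKO. Its CPM were 8.98 and 8.37 in control and 6.99 and 7.56 in vKO, so that both vKO libraries were below both control libraries. This was a log2 difference of -0.25 (SE 0.19), with an adjusted p of 0.611 by edgeR. It was the only tested convertase member with a value below 0, and it stayed below 0 under each of the 13 alternatives. With the GC trend removed the value was -0.38. Pcsk6 shares 156 exonic bases with Gm45213, a protein-coding gene model on the same strand, so its counts are uncertain whatever the strand setting.

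The members spanned a wide range of levels per kilobase of exon, and their order hardly differed between libraries. Pcsk4 ranked 1 in all 4 libraries, at 61.9 ± 15.1 CPM per kilobase in control and 71.5 ± 2.55 in vKO (SD, n = 2). Cpe ranked 2, Pcsk7 ranked 3 and Cpd ranked 4 in each of them. Pcsk7 was at 8.95 ± 0.62 in control and 10.6 ± 1.61 in vKO. These steps exceeded the spread between libraries in both groups. Pcsk6 and Furin changed places. Pcsk6 was at 1.67 ± 0.0834 in control and 1.4 ± 0.0785 in vKO, and Furin at 1.16 ± 0.136 and 1.71 ± 0.242. Divided by the length of the longest transcript instead, mean Furin was 1.85 in control and mean Pcsk6 1.97, so their gap in control depends on the length used. Cpm, Cpz and Pcsk5 held the last 3 ranks, all under 0.3 per kilobase, and their order was not the same in every library. Mean Pcsk5 in control was 0.0641 per kilobase of exon and 0.129 per kilobase of its longest transcript.

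Pcsk4 made up 85.4% and 81.9% of the summed per-kilobase level of the 5 convertases in control and 82.2% and 85.4% in vKO. Pcsk7 took 11% to 13.8% of it and Furin 1.47% to 2.22%. The shares of Pcsk4, Pcsk5 and Pcsk7 overlapped between the groups. Those of Furin, 1.47% and 1.7% in control and 2.22% and 1.8% in vKO, did not overlap. Nor did those of Pcsk6, 2.04% and 2.58% in control and 1.59% and 1.7% in vKO. Such separation is common with 2 libraries per group, and in CPM it held for 45.3% of all genes tested. The ratio of raw Furin counts to Pcsk7 counts was 0.236 and 0.22 in control and 0.284 and 0.289 in vKO. That ratio was higher in both vKO libraries and, like that of Cpe to Cpd, does not depend on scaling, but it rests on the uncertain counts of Pcsk7. The ratio of Furin counts to Pcsk4 counts was 0.0536 and 0.0643 in control and 0.0839 and 0.0653 in vKO, so control replicate 2 and vKO replicate 2 were nearly level.

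**Figure D3:**
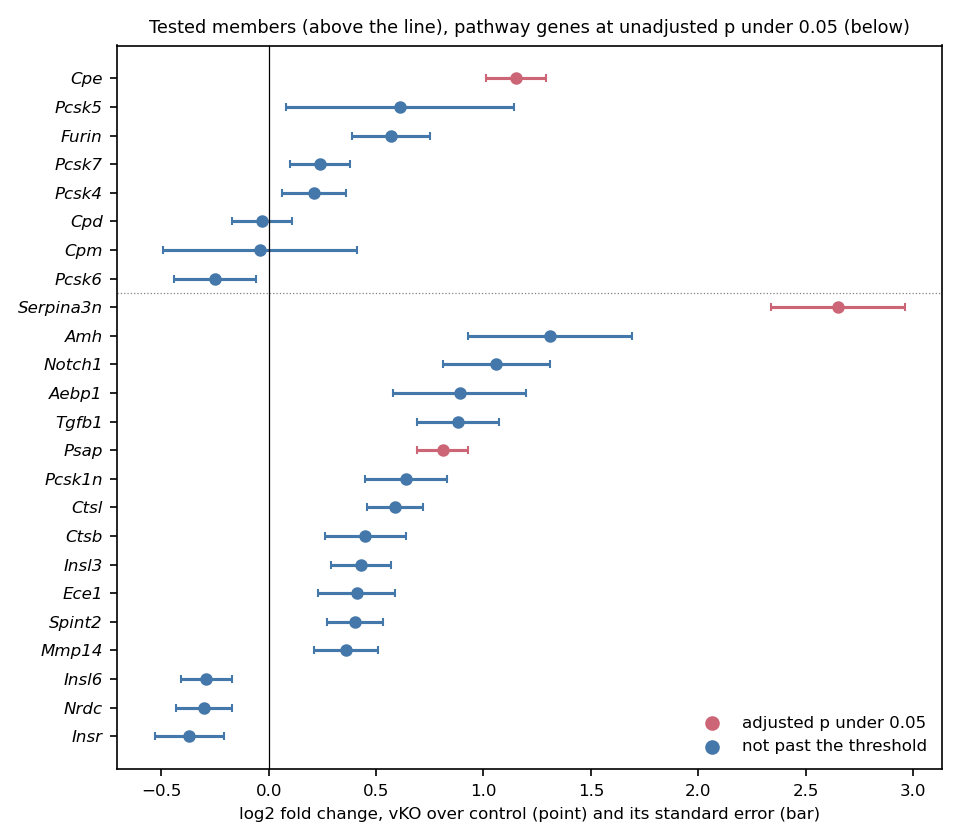
Log2 fold changes of the libraries labelled Ythdf2-vKO over control (points) with their standard errors (bars) for the 8 tested members, above the dotted line, and for the 16 listed pathway genes at an unadjusted p under 0.05, below it. Red points passed an adjusted p of 0.05, and these are Cpe, Serpina3n and Psap.

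Further genes of prohormone processing were read from 5 lists holding 87 genes, of which 55 were tested and the other 32 are not analysed here. Of the 55, 2 were called higher and 0 lower, and 13 were higher and 3 lower at an unadjusted p under 0.05. Of all genes tested, 0.279% were called higher and 0.114% lower, and 7.65% were higher and 6.47% lower at an unadjusted p under 0.05. The median log2 fold change of the 55 was 0.15.

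The remaining convertases gave no call. Pcsk1 and Pcsk2 encode the granule convertases that work together with carboxypeptidase E in endocrine cells. Pcsk1 had 22 and 57 counts in control against 39 and 48 in vKO, and Pcsk2 had 119 and 170 against 149 and 172. Both genes overlapped between the groups, with log2 fold changes of 0.17 (SE 0.41) and 0.15 (SE 0.22). Mbtps1, the site-1 protease of the Golgi, had a log2 fold change of 0.18 (SE 0.14). None of the 3 tested genes of this list had an unadjusted p under 0.05.

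Among 11 tested granule and neuropeptide-processing partners, 8 had a log2 fold change above 0 and none was called. Pcsk1n, which encodes the PCSK1 inhibitor proSAAS, was the gene at an unadjusted p under 0.05. It had 224 and 221 counts in control against 376 and 331 in vKO, which is a log2 difference of 0.64 (SE 0.19) at an adjusted p of 0.173 by edgeR. Its groups did not overlap, which was so for 45.3% of all genes tested. The amidating enzyme gene Pam, which acts after carboxypeptidase trimming, had a log2 fold change of -0.12 (SE 0.17). Of the 4 related metallocarboxypeptidase genes Cpn1, Cpxm1, Cpxm2 and Aebp1, Aebp1 had an unadjusted p of 0.015. It had 70 and 108 counts in control against 218 and 111 in vKO, so vKO replicate 1 stood apart and vKO replicate 2 was close to control.

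Of 11 other processing proteases and protease inhibitors, Serpina3n was called. It encodes a secreted serpin, which is not a known convertase inhibitor, and its counts were 17 and 30 in control but 166 and 130 in vKO. The fitted log2 difference was 2.65 (SE 0.31) at an adjusted p of 0.00443 by edgeR. The cathepsin genes Ctsl and Ctsb, which encode lysosomal cysteine proteases, had log2 fold changes of 0.59 (SE 0.13) and 0.45 (SE 0.19) without being called. Ctsl is also a Sertoli cell marker. Ece1, the endothelin-converting enzyme gene, and Spint2, a Kunitz-type inhibitor gene, had values of 0.41 (SE 0.18) and 0.40 (SE 0.13). Nrdc, found in the table under its other symbol Nrd1, encodes a protease that cuts at paired basic residues. It had 26338 and 27092 counts in control against 22158 and 22185 in vKO, with a log2 fold change of -0.30 (SE 0.13). None of these 5 genes passed the threshold, with adjusted p from 0.0819 to 0.324 by edgeR.

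The list of precursors had 26 tested genes of 56. Psap, the gene of prosaposin, a secreted and lysosomal precursor that Sertoli cells make in quantity, was the gene called. Its counts were 3693 and 4458 in control and 7655 and 6803 in vKO, which is a log2 difference of 0.81 (SE 0.12) at an adjusted p of 0.0171 by edgeR. At an unadjusted p under 0.05, 6 genes of this list were higher and 2 were lower, and the lower ones, Insl6 and Insr, are given below. Among the higher ones, Tgfb1 went from 6.25 ± 0.0599 to 11.5 ± 0.91 CPM, with an adjusted p of 0.0696 by edgeR. Notch1, a receptor gene, had a log2 fold change of 1.06 (SE 0.25) and Mmp14, a membrane matrix metalloproteinase gene, one of 0.36 (SE 0.15). Amh, the anti-Müllerian hormone gene of Sertoli cells, had 42 and 30 counts in control against 117 and 67 in vKO, a log2 fold change of 1.31 (SE 0.38). None of these 4 was called. Their groups did not overlap, which was so for 45.3% of all genes tested, and the 4 were named for an unadjusted p under 0.05.

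The relaxin-family hormones of the testis had values of opposite sign. Insl3, the Leydig cell hormone gene, had 65.6 and 70.8 CPM in control and 101.2 and 82.1 in vKO. Insl6, a germ cell gene, had 121.6 and 127.6 in control and 98 and 105.9 in vKO. Their log2 fold changes were 0.43 (SE 0.14) and -0.29 (SE 0.12), and neither was called. Insr, the insulin receptor gene, was at -0.37 (SE 0.16). The opioid precursor gene Penk, a substrate of carboxypeptidase E, had 160.5 and 149.9 CPM in control and 127.5 and 141.0 in vKO, at an unadjusted p of 0.111.

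The summed level of Sertoli cell markers was higher in both vKO libraries than in both control libraries, as was Cpe. The same held for the sums of endothelial and erythrocyte markers given below. In bulk tissue, more cells of a type and more RNA per cell cannot be told apart. All 12 Sertoli markers were tested and had log2 fold changes above 0, from 0.11 to 1.31 with a median of 0.47. Of these, 1 was called higher, Wt1, and 7 were higher at an unadjusted p under 0.05, beside 0.279% and 7.65% of all genes tested. The groups overlapped for Fshr, the FSH receptor gene, and Shbg, where vKO replicate 2 lay below control replicate 2. The summed level of the 12 markers was 1038 and 1140 CPM in control and 1558 and 1359 in vKO, a ratio of 1.34 against 2.22 for Cpe. Of that sum the marker Clu alone was 658.3 and 715.0 CPM in control and 934.1 and 801.2 in vKO. Clu thus made up most of the summed level, and its own ratio of 1.26 was below that of the sum. No Sertoli marker was at 0 in any library, and 1 of the 12, Amh, had a larger log2 fold change than Cpe. The part of Sertoli cell content in the difference of Cpe was not tested.

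Leydig cell markers had a median log2 fold change of 0.38, with 7 of 8 above 0 and none called. Their sums were 301.0 and 365.1 CPM in control and 478.3 and 357.1 in vKO, so the groups overlapped. Elongating spermatid markers had a median of -0.27, with 1 of 8 above 0. At an unadjusted p under 0.05, 4 of the 8 were lower, beside 6.47% of all genes tested, and none was called. The sums of these markers were 11039 and 8935 in control and 8589 and 8732 in vKO. Both vKO sums lay below both control sums, and control replicate 1 stood above the other 3 libraries. Round spermatid markers, the stage closest to the known site of Pcsk4, had a median of 0.02 and sums from 1702 to 1810. Macrophage sums were 40.2 and 59 in control and 60.6 and 47.7 in vKO, and endothelial sums were 33.4 and 22.8 against 42.1 and 35.9. Erythrocyte sums were 26.8 and 32.5 against 42.2 and 39.3. Mean endothelial and erythrocyte sums in vKO were 1.39 and 1.37 times those in control, beside 1.34 for Sertoli markers. Most of the endothelial sum was Vwf and most of the erythrocyte sum Alas2, and the groups overlapped for both genes. The tested endothelial markers had a median log2 fold change of 0.43, with 4 of 5 above 0. Erythrocyte markers had a median of 0.76, with 4 of 4 above 0, and none of either list was called. Median log2 fold changes were 0.22 for spermatogonia markers, -0.14 for spermatocytes, -0.05 for peritubular myoid cells and 0.13 for rete testis and efferent duct. These cell types were not tested for a part in the difference of any member.

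The genes nearest to Cpe in pattern were found by the root mean square difference between 2 genes' deviations from their own 4-library means, on log2 (CPM + 0.5). Cpe deviated by -0.74 and -0.41 in control and by 0.68 and 0.47 in vKO. Among 17826 genes with a mean of at least 1 CPM, the nearest were Clip3, Mfge8, Syt12, Gpc4 and Cntnap1, at 0.044 to 0.070. The median over all genes compared was 0.607. Mfge8, which encodes a secreted protein that bridges phagocytes to dying cells, had 1103 and 1746 counts in control against 3242 and 3061 in vKO. Clip3 had 108 and 170 against 342 and 317, and Gpc4, a cell surface proteoglycan gene, had 199 and 291 against 577 and 486. The 5 genes were picked for matching the deviations of Cpe, so their rise in vKO follows from that choice. Clip3, Mfge8 and Gpc4 were among the genes called higher. Syt12 and Cntnap1, with 14 to 60 and 9 to 53 counts per library, were not. With only 4 libraries this likeness describes these libraries and nothing more.

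Among the members, Furin was the nearest to Cpe, at 0.364, with 4.74% of genes nearer. Pcsk5 followed at 0.416 and Pcsk7 at 0.490. Pcsk6 was the farthest, at 0.721, with 82.7% of genes nearer to Cpe. The other carboxypeptidase above the minimum level, Cpd, was at 0.607, the same as the median of all genes.

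**Figure D4:**
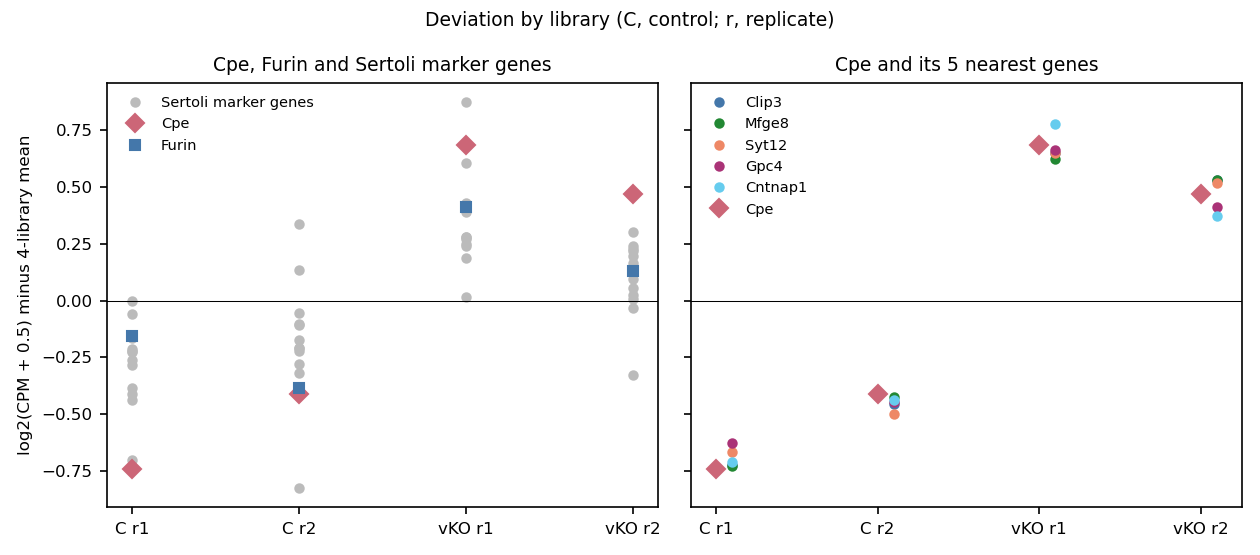
Deviation of log2 (CPM + 0.5) from each gene's 4-library mean (vertical axis), by library (C, control; vKO, labelled Ythdf2-vKO; r, replicate). Left, Cpe (diamonds) and Furin (squares) over 12 Sertoli marker genes (grey); right, Cpe and its 5 nearest genes, drawn slightly to the right of it. Cpe runs from -0.74 to 0.68, and at vKO replicate 2 it lies above all the Sertoli markers.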

How the data were processed

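The members and gene lists were chosen with earlier results of these data known. The authors deposited raw counts per gene for the 4 libraries, per the file headers, with HISAT2 2.1.0 and HTSeq 0.6.1p1 named in the submitters' processing notes. The genome build and the strand setting are not given in the sources used here. Per the file headers, the authors also deposited a mean normalized count (a signal), a log2 fold change and that value's standard error, a test statistic (a score), and p-values. Of the identifiers, 25261 were found in GENCODE M21 (GRCm38), which gave coordinates, lengths and GC content, and whose build may differ from the authors' own. In the symbol column 26 symbols had become dates and were restored by identifier.

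The software was R 4.3.3 with edgeR 4.0.16 and limma 3.58.1. After filterByExpr and TMM scaling, genotype was the sole term of a quasi-likelihood model fitted robustly, and p-values were adjusted over 21132 genes by the Benjamini-Hochberg method. The standard error is the absolute log2 fold change divided by the square root of F. Values are mean ± SD over 2 libraries, and SDs of 2 values are themselves imprecise. The replicates of a group differed by more than sampling noise (chi-square per degree of freedom 21.17 in control and 8.415 in vKO) and none were merged. The fit was also run on simulated counts with a common dispersion for all genes and no GC trend. Those counts are simpler than these data, so the run does not show how the fit behaves on them. Genes were named by a rule: all members, Ythdf2, called genes of the pathway and marker lists, pathway genes at an unadjusted p under 0.05 where a list had fewer than 4 calls, and the 5 genes nearest to Cpe. Further genes of the lists (Pcsk1, Pcsk2, Mbtps1, Pam and Penk) were named after their values were seen, for their role. Alternatives were other scalings, filters and tests (DESeq2 1.42.0), a GC offset, a replicate block, and leaving out each library.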

Additional observations from a re-analysis of the deposited data

How the results depend on the processing

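Cpe kept its direction and stayed past the threshold under all 13 alternatives, with log2 fold changes from 0.99 to 1.33 and adjusted p from 1.75e-17 to 0.0145 by edgeR or DESeq2. Its range without 1 library was the same, 0.99 to 1.33. The number of genes called, 83, was 218 with library totals alone, 156 with the GC offset, 217 with DESeq2's Wald test and 10 at an adjusted p under 0.01. Higher genes were 59 of the 83, 181 of 218 with library totals alone and 89 of 156 with the GC offset. Without 1 library it ran from 35 to 1512. Replicates 1 and 2 occur in each group, with no word in the labels on whether a number marks anything shared. Deviations from the group means had a correlation of 0.0932 across genes between the replicate 1 libraries of the groups. The replicate 2 libraries give the same value by construction, because 2 deviations from their mean mirror each other. The numbers were treated as names only. A replicate block raised the calls to 1017 genes, and 603 with the GC offset and replicate block; Cpe was at 1.16 in both. Furin was past the threshold with the block (0.56, adjusted p 0.0427 by edgeR) and not with the GC offset and block (0.44, adjusted p 0.144 by edgeR). The sign of Cpd turned with library totals alone (0.04), the GC offset (0.02) and the GC offset with the block (0.02), and it ran from -0.15 to 0.08 without 1 library. That of Cpm turned under the same settings (0.03, 0.01 and 0.00), and it ran from -0.17 to 0.08 without 1 library. Without 1 library Pcsk4 ran from -0.02 to 0.47 and Pcsk5 from -0.02 to 1.90. Of the 5 genes nearest to Cpe, 3 remained at a minimum of 5 CPM, where Syt12 and Cntnap1 are removed by that minimum. DESeq2 gave no adjusted p for Cpm and Pcsk5, and Cpz was fitted only without a filter on low counts (adjusted p 0.343 by edgeR). The cause of these changes was not tested, beyond the stricter threshold passing fewer genes by construction. Cpm, Cpz and Pcsk5 had under 50 counts in each library, with 2 libraries per group, so their values are imprecise. For Pcsk5 the control libraries also differed from each other, at 9 and 44 counts.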
